A study of Mus musculus with 2 samples.

Results

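Gene desert peaks were sites of accessible chromatin that lay far from every gene that codes for a protein. They were the autosomal DNase peaks of replicate 1 that overlapped a peak of replicate 2, with a centre outside every protein-coding gene body, more than 1 kb from every annotated transcript start and more than 200 kb from the nearest protein-coding start of the GENCODE M21 annotation. Of 72927 autosomal peaks found in both libraries, 3210 met this rule, which is 4.40%. The tissue was the gastrocnemius, the large calf muscle, of 4-day-old male B6CASTF1/J mice, first-generation hybrids of C57BL/6J and CAST/EiJ. DNase-seq cuts nuclei with DNase I and sequences the cut ends, so a peak marks DNA that nucleosomes leave open. There was 1 group with 2 biological replicates, each labelled as 3 males and with the same donor entry, so there was no contrast between conditions to test, and each level below is given for both libraries. Whole muscle holds fibres, fibroblasts, vessels and nerve, and a site a little open in many nuclei cannot be told apart in it from a site wide open in few.

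Gene deserts are long stretches of the genome without protein-coding genes. Some hold enhancers, which are switches bound by transcription factors that reach a distant gene when the chromatin folds. Deserts around genes for developmental transcription factors are known for such switches, whereas others, often beside neuronal adhesion genes, are known as large and poor in conserved sequence. In muscle, MyoD and its relatives bind E-boxes, AP-1 and NFI factors bind many enhancers, and CTCF binds sites that anchor chromatin loops.

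The longer peak lists held 94295 peaks in replicate 1 and 123291 in replicate 2, and the deposited cut densities under 1 were whole multiples, within 0.1 of a step, of a step that was 2.03 times as large in replicate 1. Read depth is not known from the files, so densities are compared between groups of peaks as ranks, percentiles from 0 to 100 within each library's own list. At promoters, 10 of 10 muscle marker genes had a peak in replicate 1 and 9 of 10 in replicate 2, with Tnnt3 lacking one there. Of 4 macrophage markers, 0 had a promoter peak in either library. All 5 fibroblast, 3 of 4 endothelial and 2 of 4 Schwann cell markers had one in both libraries. Of 4 markers each for cells foreign to muscle, neurons had 1 in replicate 1 and 2 in replicate 2, hepatocytes 1 in both, and keratinocytes 0 in replicate 1 and 1 in replicate 2. The part of the other cell types in the desert peaks was not tested.

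Of the 12 strongest desert peaks and the strongest peak of each of the 10 best filled deserts, 8 that had a listed motif under a footprint in both libraries are shown here as sequence, so that the motif can be read in its place. A footprint is a short stretch inside accessible DNA that is spared from cutting, as a bound protein would leave it. The sequences are the mm10 plus strand, read from the RefSeq copy of that assembly, and capitals mark a listed motif with every base under a footprint in both libraries. The peak beside Atp23 covers chr10:126511601-126511820, the peak in Zswim6 covers chr13:107831301-107831500, and the peak beside Noct covers chr3:50906061-50906240. The peak beside Ankrd50 is at chr3:38232581-38232740, that beside Icos at chr1:61181201-61181360, and that beside Gsdmc at chr15:62903101-62903340. The peak beside Arid1b lies at chr17:4778261-4778460 and the peak beside Zmiz1 at chr14:25226641-25226800.
Peak beside Atp23: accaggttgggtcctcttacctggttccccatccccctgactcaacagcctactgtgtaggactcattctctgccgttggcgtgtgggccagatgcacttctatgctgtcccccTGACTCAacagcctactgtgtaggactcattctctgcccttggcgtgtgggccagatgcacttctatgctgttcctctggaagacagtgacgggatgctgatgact
Peak in Zswim6: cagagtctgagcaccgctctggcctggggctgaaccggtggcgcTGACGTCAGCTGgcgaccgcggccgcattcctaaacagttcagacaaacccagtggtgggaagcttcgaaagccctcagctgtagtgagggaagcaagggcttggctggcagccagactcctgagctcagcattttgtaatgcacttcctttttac
Peak beside Noct: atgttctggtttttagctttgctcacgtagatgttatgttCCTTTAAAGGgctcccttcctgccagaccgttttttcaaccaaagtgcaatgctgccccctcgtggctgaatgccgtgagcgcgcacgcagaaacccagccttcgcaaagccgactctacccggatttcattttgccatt
Peak beside Ankrd50: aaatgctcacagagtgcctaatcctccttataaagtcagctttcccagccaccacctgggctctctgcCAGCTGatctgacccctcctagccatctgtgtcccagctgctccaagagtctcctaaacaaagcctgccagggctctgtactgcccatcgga
Peak beside Icos: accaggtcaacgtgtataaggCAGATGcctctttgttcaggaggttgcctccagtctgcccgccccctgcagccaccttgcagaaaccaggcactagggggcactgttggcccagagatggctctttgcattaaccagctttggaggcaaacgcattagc
Peak beside Gsdmc: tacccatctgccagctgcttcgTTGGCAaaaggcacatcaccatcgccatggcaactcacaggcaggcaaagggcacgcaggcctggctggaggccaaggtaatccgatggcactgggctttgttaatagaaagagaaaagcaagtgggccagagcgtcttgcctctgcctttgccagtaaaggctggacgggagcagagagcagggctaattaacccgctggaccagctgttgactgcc
Peak beside Arid1b: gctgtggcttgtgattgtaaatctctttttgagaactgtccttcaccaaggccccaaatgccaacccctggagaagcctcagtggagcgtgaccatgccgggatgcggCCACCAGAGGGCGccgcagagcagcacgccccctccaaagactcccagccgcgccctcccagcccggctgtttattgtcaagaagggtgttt
Peak beside Zmiz1: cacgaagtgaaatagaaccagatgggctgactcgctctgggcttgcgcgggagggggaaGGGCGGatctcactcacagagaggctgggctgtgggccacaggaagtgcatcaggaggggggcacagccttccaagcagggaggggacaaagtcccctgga

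The strongest desert peak in both libraries, beside Atp23, which encodes a mitochondrial metallopeptidase, stood 390 kb from that gene's start. Its density was 19.4 in replicate 1 and 14.3 in replicate 2, above 99.97% and 99.99% of the peaks of the libraries. It holds an exact direct repeat of 44 bases whose copies begin 77 bases apart, and each copy has an AP-1 site. Only the site of the second copy lay under footprints of both libraries. AP-1 is the dimer of FOS and JUN proteins.

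The peak in Zswim6, next but one by mean rank, reached densities of 9.59 in replicate 1 and 5.66 in replicate 2. Its footprint in both libraries covered TGACGTCA, the cyclic AMP response element bound by CREB and ATF proteins, which shares bases with the myogenic E-box CAGCTG. The annotation used for the rule lists Zswim6 as a noncoding gene, with Smim15 the nearest coding gene at 213 kb, whereas RefSeq counts it as protein-coding with its nearest start 58.7 kb away. The peak beside Noct, whose transcript follows the circadian clock, had a CArG box under its footprints, the site of serum response factor, and densities of 6.04 in replicate 1 and 3.54 in replicate 2.

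The second strongest peak, at chr1:122357141-122357300, lay 789 kb from Ddx18, which encodes an RNA helicase. Its density was 10.98 in replicate 1 and 8.06 in replicate 2, and it held none of the 34 motifs searched. The same was true of the fourth, between Slc4a3 and Epha4, at densities of 7.24 in replicate 1 and 5.34 in replicate 2. Motifs were matched exactly as written, so a near match, such as a CTCF site that departs from the searched letters, was not counted. Each of the 12 strongest ranked above percentile 90 in both lists, and the 2 beside Ankrd50 belonged to the same desert. The others lay beside Slc4a3, Ubash3b, Cdh20, Med13l, Myt1l and Icos, besides those already named.

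Desert sequence covered 499.997 Mb, 20.9% of the autosomal bases, and held 6.42 shared peaks per Mb. Intergenic sequence 100 to 200 kb from the nearest protein-coding start held 14.9 per Mb, that at 10 to 100 kb held 24.3, and all autosomal sequence held 30.4. Counted in each library alone, deserts held 5678 peaks in replicate 1 and 7443 in replicate 2, or 13.1 ± 2.50 per Mb (SD, n = 2), against 37.1 ± 8.77 per Mb at 10 to 100 kb. Of the 6 classes of position, deserts held the fewest peaks per Mb in both libraries.

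Desert peaks were also weaker. Their median rank was 28.5 in replicate 1 and 41.5 in replicate 2, a mean of 35.0 ± 9.16 (SD, n = 2), against 52.6 and 64.1 for peaks at 10 to 100 kb and 75.8 and 81.6 for peaks within 1 kb of a start. Their median density was 0.560 in replicate 1 and 0.437 in replicate 2, in ranges of 0.0810 to 19.4 and 0.0400 to 14.3. In rank and in peaks per Mb, the values of both libraries for deserts lay below both values for 10 to 100 kb, so the difference exceeded the spread between libraries. The median desert peak was 160 bp wide and its nearest other peak in replicate 1 was 15.03 kb away, against 4.85 kb for peaks at 10 to 100 kb.

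**Figure D1:**
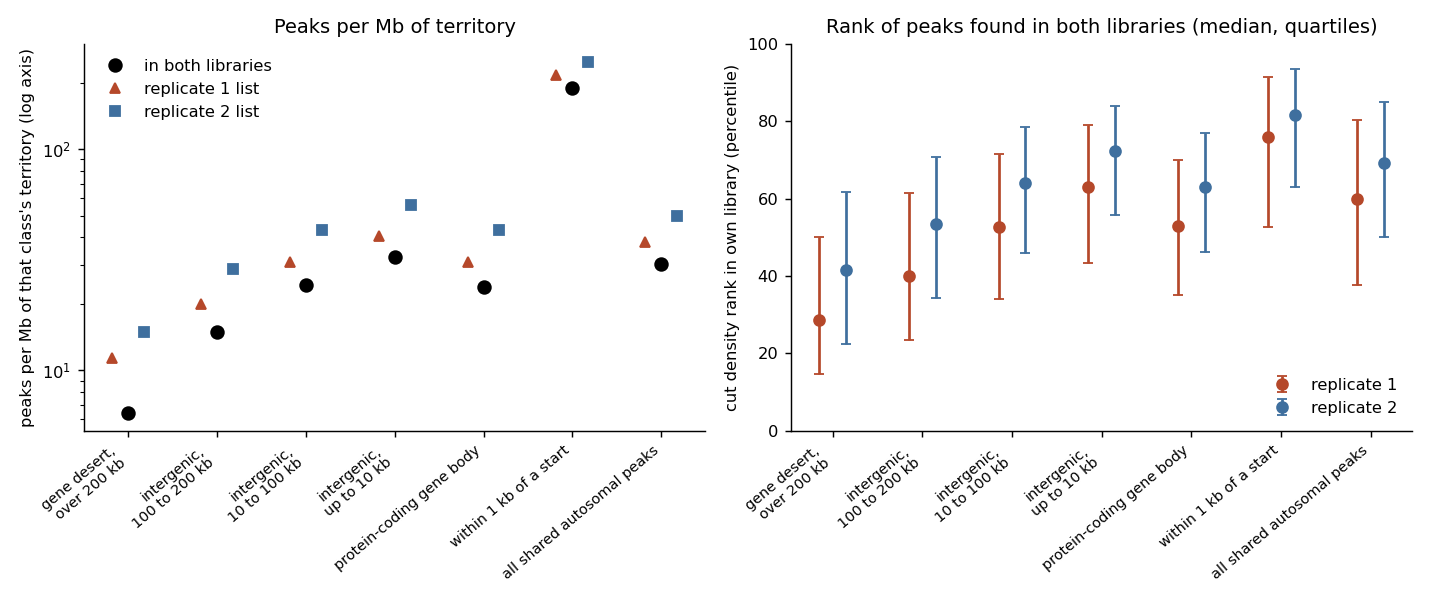
Left, peaks per Mb of territory for each class of position, on a log axis; circles are peaks found in both libraries, triangles and squares the lists of replicate 1 and replicate 2. Right, median cut density rank within each library with quartiles as bars, for peaks found in both. Gene deserts have the lowest values in both panels, at 6.42 shared peaks per Mb and median ranks of 28.5 and 41.5.

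Within deserts, peaks were sparser and weaker farther from genes. Shared peaks numbered 10.7 per Mb at 200 to 300 kb from the nearest protein-coding start, 7.58 at 300 to 500 kb, 3.69 at 500 to 1000 kb and 2.00 beyond 1000 kb, and the lists of both libraries kept the same order. Median ranks were 34.0, 27.9, 20.5 and 11.1 in replicate 1 and 47.7, 41.5, 30.9 and 14.1 in replicate 2, in the same order of distance. The share of peaks with at least 50% of their bases soft-masked as repeat was, over these distances, 3.76%, 6.59%, 11.3% and 17.1%. The part of repeats in the fall of rank with distance was not tested. Over all distances together, the median rank of desert peaks was 36.2 without such members and 35.0 with them, values that are not split by distance.

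**Figure D2:**
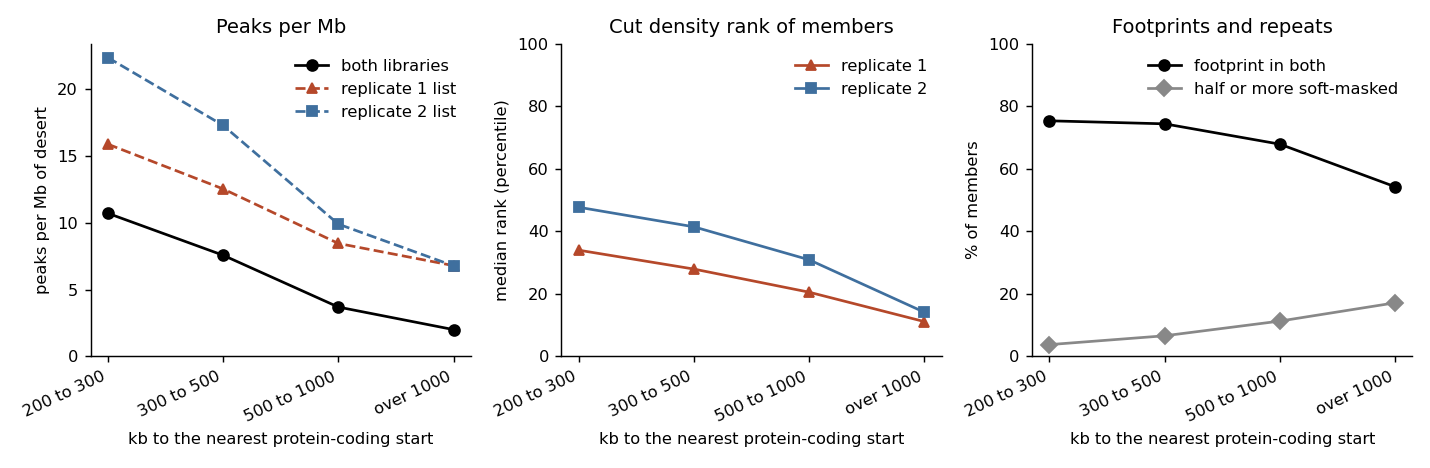
Desert peaks by distance to the nearest protein-coding start, in kb. Left, peaks per Mb of desert in both libraries (circles) and in each list; middle, median rank of the shared peaks; right, the share with a footprint in both libraries and the share with at least 50% of their bases soft-masked. Beyond 1000 kb there are 2.00 peaks per Mb and 54.3% have a footprint in both.

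The median desert peak was 330 kb from the nearest protein-coding start and the farthest 2205 kb. Of the 5 farthest, a peak that was also among the 12 strongest lay 2140 kb upstream of Cdh20, a cadherin of cell adhesion, with densities of 6.85 in replicate 1 and 3.599 in replicate 2. Another of the farthest, 2195 kb upstream of Pik3c3, the lipid kinase of autophagy, was 400 bp wide and reached ranks of 81.0 in replicate 1 and 80.1 in replicate 2. The remaining 3 were at mean ranks of 7.74, 5.52 and 16.9. Of the members, 51.7% lay upstream of the nearest start, against 54.5% of desert sequence.

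The 3 peaks nearest to the 200 kb limit on each side had overlapping ranks. Just inside it were a peak 200.02 kb from Sp3 at a mean rank of 62.2, one 200.04 kb from Edem1 at 13.1 and one 200.1 kb from Rab10 at 92.3. Just outside it were peaks 199.97 kb from Thap1, 199.96 kb from Flrt2 and 199.93 kb from Rpl38, at mean ranks of 52.3, 12.96 and 90.1. Of these peaks, those beside Edem1, Rab10 and Flrt2 were mostly repeat, with 80.9%, 70% and 81.8% of their bases soft-masked. Under the RefSeq protein-coding genes of the same assembly, 3053 members, or 95.1%, still met the rule and 28 lay in a RefSeq gene body. Of those 28, 4 each lay in Ppargc1a, which encodes a coactivator of mitochondrial biogenesis, and Rad51b, a DNA repair gene, and 3 in Robo2, an axon guidance receptor; these genes are named after their counts were seen.

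Many desert peaks lay in genes for long noncoding RNAs. Of the members, 466 or 14.5% lay in the body of one, in 267 such genes. Of desert sequence 8.89% lay in one, of all shared peaks 10.3% and of peaks at 100 to 200 kb 16.7%. The most members lay in 2610307P16Rik, with 14 of them near Sox4, a transcription factor of progenitor cells. In Gm49692 there were 12, in 3110039I08Rik near Ubash3b 11, in 6330411D24Rik near Prdm2 11, and in Gm13481 near Acvr2a 9. Only 181 members were more than 200 kb from every annotated start, coding or not.

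Desert peaks were found again in the other library less often than other peaks, and this went with their rank. Of the desert peaks, 56.5% of replicate 1 and 43.1% of replicate 2 had a partner, against 78.5% and 55.9% of peaks at 10 to 100 kb. In replicate 1, 39.1% of desert peaks had a rank of 0 to 10, against 10.2% of those at 10 to 100 kb. At equal low rank the order was the other way. At ranks of 20 to 30 in replicate 1, 83.2% of desert peaks had a partner against 71.8% of those at 10 to 100 kb, and at ranks of 0 to 10 the shares were 20.5% against 13.8%. In replicate 2 they were 42.7% against 28.4% at ranks of 20 to 30 and 12.6% against 5.87% at 0 to 10. The desert peaks of replicate 1 without a partner, 2468 in number, had a median rank of 6.40, and 41.6% of them were at least 50% soft-masked, against 6.67% of the members and 2.37% of all shared peaks. In replicate 2, 18.6% of the 4236 without a partner were at least 50% soft-masked.

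Footprints covered most desert peaks. At least 1 footprint touched 78.7% of members in replicate 1 and 87.7% in replicate 2, and 72.8% (2338) had one in both libraries, while 207 had none in either. The background was 82.8% of all shared autosomal peaks and 86.0% at 10 to 100 kb. In bins of low rank this too was the other way. At mean ranks of 10 to 20, 45.0% of desert peaks had footprints in both against 38.7% at 10 to 100 kb, and at 30 to 40 the shares were 81.1% against 73.9%. The shorter peak lists, whose thresholds are not given, held 43.1% (1382) of members in both libraries, against 63.7% of all shared peaks.

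**Figure D3:**
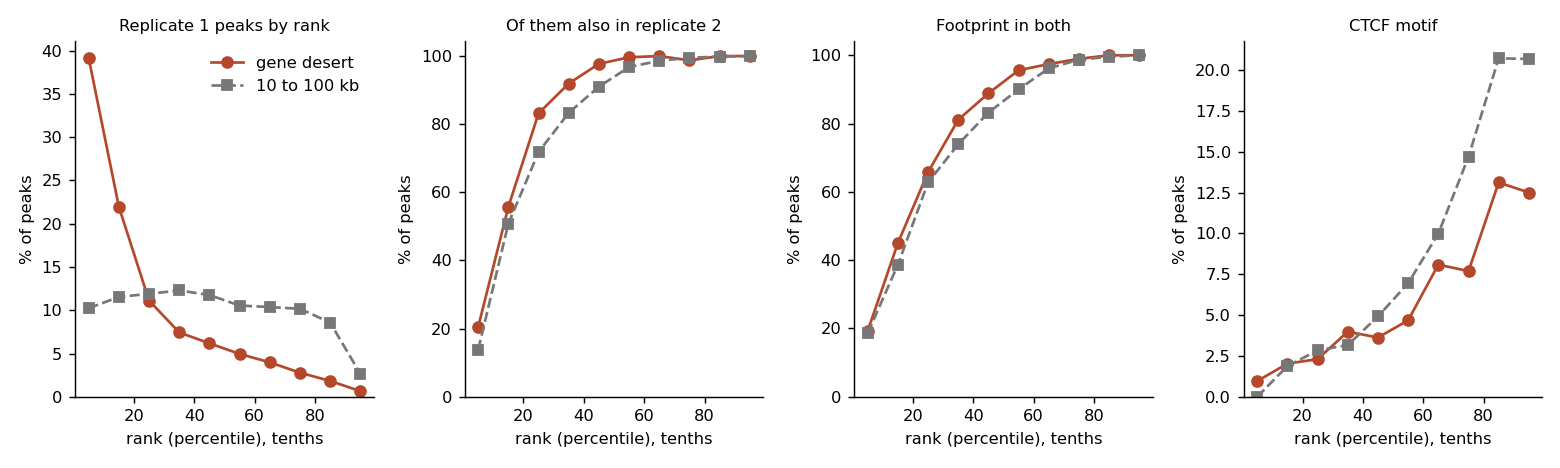
Gene desert peaks (circles) and intergenic peaks 10 to 100 kb from a start (squares) in rank bins of 10 percentiles. From left, the share of all replicate 1 peaks of the class in each bin of replicate 1 rank, the share of them found again in replicate 2, and, for peaks in both libraries by mean rank, the share with a footprint in both and the share holding the CTCF motif. The lowest bin holds 39.1% of desert peaks and 10.2% of those at 10 to 100 kb.

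E-boxes and the NFI core TTGGCA, 1 arm of the full NFI palindrome, were the most frequent of the motifs searched in desert peaks. The motifs differ in length and short ones match more often in any sequence, so this order compares unlike strings. The GC box and CTCF motif were less frequent in desert peaks than in peaks at 10 to 100 kb. Peaks at 100 to 200 kb lay between them, with the GC box in 7.85% and the CTCF motif in 5.36%. The myogenic E-box CAGCTG, the site favoured by MyoD and myogenin, stood in 28.2% of members, against 26.5% of peaks at 10 to 100 kb and 23.6% of all shared peaks. The E-box CATCTG, favoured by TWIST factors of mesenchyme, stood in 22.1%, against 19.2% and 15.7%. The NFI core TTGGCA was found in 21.5%, against 17.8% and 14.7%. The full palindrome was found in only 8 members, 0.249%, against 0.106% and 0.123%, and in 3 peaks at 100 to 200 kb, 0.0993%. The AP-1 site TGANTCA stood in 6.85%, against 7.50% and 5.44%. The GC box GGGCGG, typical of promoters, stood in 6.57%, against 11.8% and 27.7%. The E-box and NFI core shares were not particular to deserts, since peaks at 100 to 200 kb held CAGCTG in 31.0%, CATCTG in 21.1% and TTGGCA in 21.4%. Motifs were searched on both strands, and matches of different motifs may overlap. Peak boundaries of replicate 2, which are wider, gave 31.3% for CAGCTG, 24.9% for CATCTG and 24.3% for TTGGCA. With the same boundaries the shares were 25.4%, 17.7% and 16.5% of all shared peaks. At 100 to 200 kb they were 32.7%, 23.2% and 24.2%. By strength, CAGCTG stood in 13.8% of desert peaks at mean ranks of 0 to 10, 27.7% at 40 to 50, 28.7% at 70 to 80 and 33.3% at 90 to 100, against 8.28%, 25.4%, 28.6% and 23.3% of those at 10 to 100 kb. The highest bin of the deserts was 50 to 60, at 37.7% of 342 peaks against 28.3%, while the bin of 90 to 100 held only 48 desert peaks.

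Against the desert sequence around them, the members differed by motif. CAGCTG occurred 2.16 times per kb of member sequence and 0.289 times per kb of all desert sequence, a ratio of 7.49. The GC box had a higher ratio, 9.49. Highest of the motifs compared in this way was CTCF at 259, from 134 sites in members and 500 in all desert sequence. The ratio was 2.96 for TTGGCA, 2.02 for CATCTG, 1.64 for the MCAT site of TEAD factors, 1.41 for AP-1 and 0.881 for the MEF2 site, of which the members held 12. MEF2 proteins work with MyoD at muscle genes. Members had a median GC content of 51.9% against 38.7% for desert sequence, and its part in these ratios was not tested. Rare motifs stayed rare. No member held the YY1 site, against 0.0164% of peaks at 10 to 100 kb and 0.295% of all shared peaks, and 0.187% held the MEF3 site TCAGGTTTC, against 0.269% of all.

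The CTCF motif stood in 134 members, or 4.17%, against 9.58% of peaks at 10 to 100 kb and 5.78% of all shared peaks. The whole desert territory held 500 matches, so that the members covered 26.8% of them. The members with the motif had a median mean rank of 57.5 against 34.4 for those without. In 56.7% of them the motif lay under a footprint of both libraries, against 75.4% of the holders at 10 to 100 kb and 76.2% of the holders among all shared peaks. Among the holders of other motifs in deserts the share was 9.18% for CAGCTG, 5.92% for CATCTG and 17.0% for TTGGCA. For holders among all shared peaks it was 8.73%, 9.31% and 19.7%. At mean ranks of 80 to 90 the CTCF motif stood in 13.1% of desert peaks against 20.7% at 10 to 100 kb. The peak beside Arid1b, whose CTCF match is printed above, had densities of 2.40 in replicate 1 and 1.35 in replicate 2.

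**Figure D4:**
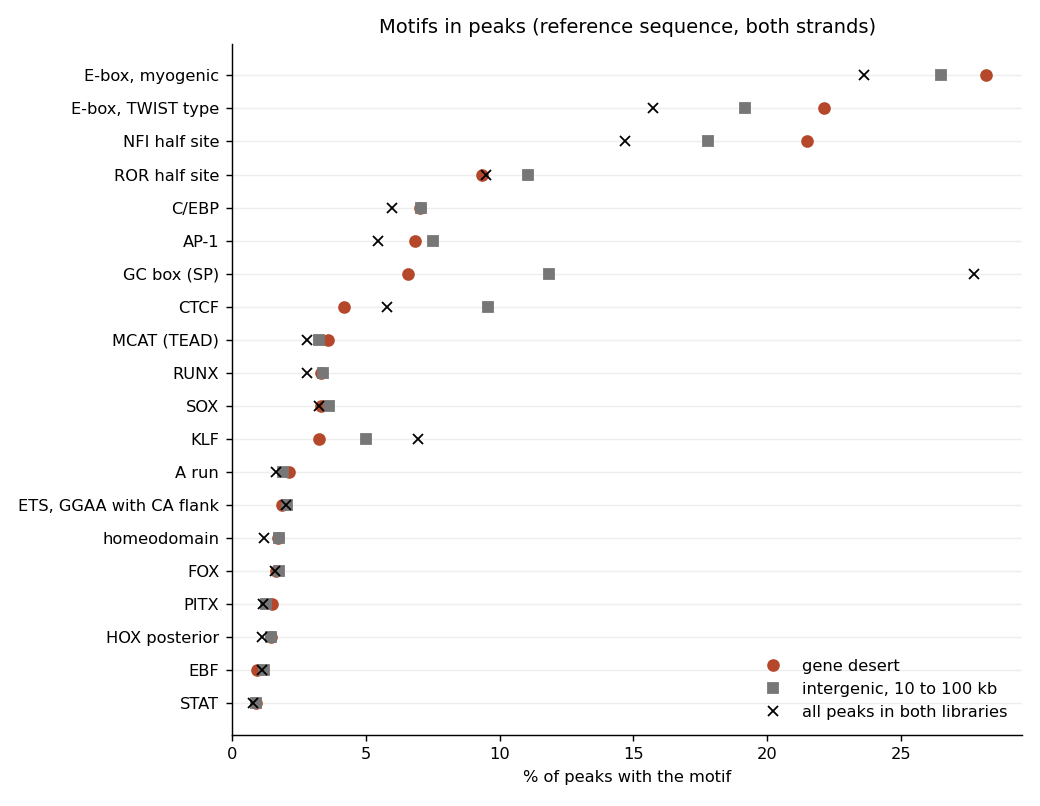
Share of peaks holding each of 20 motifs, which differ in length, in the reference sequence, in gene desert peaks (circles), intergenic peaks 10 to 100 kb from a start (squares) and all shared autosomal peaks (crosses). The myogenic and TWIST E-boxes and the single-arm NFI core are the 3 most frequent in desert peaks at 28.2%, 22.1% and 21.5%, and the GC box is found in 6.57% there against 27.7% of all.

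The members were spread over many deserts in unequal numbers. Of 845 gaps between genes that held desert sequence, 630 had at least 1 member. The 10 with the most held 281 members, 8.75% of all, in 2.14% of desert sequence. These gaps were chosen by their counts, which favours a share above that of their sequence, so the 2 shares are no measure of clustering. The gap between Zeb2, a repressor of the epithelial state, and Acvr2a, an activin receptor, held 35 members at chr2:45117396-48814108. The gap from Myc, the growth-promoting transcription factor, to Gsdmc held 32, as did that from Mki67, a marker of dividing cells, to Mgmt, a DNA repair enzyme. The densest of the 10 was the gap from Gm5148 to Ankrd50 with 27 members, or 85.2 per Mb of desert, against 6.42 in all deserts. Next came the gap from Npvf to Nfe2l3 with 26 members, or 69.8 per Mb.

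The others among the 10 lay between Dhx35 and Gm826 with 29, Nox3 and Arid1b with 27, Auts2 and Castor2 with 25, Zfp608 and Gramd3 with 25, and Rps24 and Zmiz1 with 23. Counted in each library alone, the gap from Mki67 to Mgmt held 35 peaks in replicate 1 and 71 in replicate 2. In 6 of the 10 gaps no member held the CTCF motif, which 4.17% of all 3210 members held. With 23 to 35 members per gap, a gap without a holder is no particular trait at that share. Runs of members were mostly short. With members joined at up to 10 kb there were 2569 runs, of which 2128 were single peaks, 66.3% of all members, and 42 had at least 4. A run of 12 spanned 6.78 kb at chr12:20227579-20234360 near Gm21863, and a run of 11 spanned 16.1 kb near Nfe2l3, a CNC-family transcription factor.

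**Figure D5:**
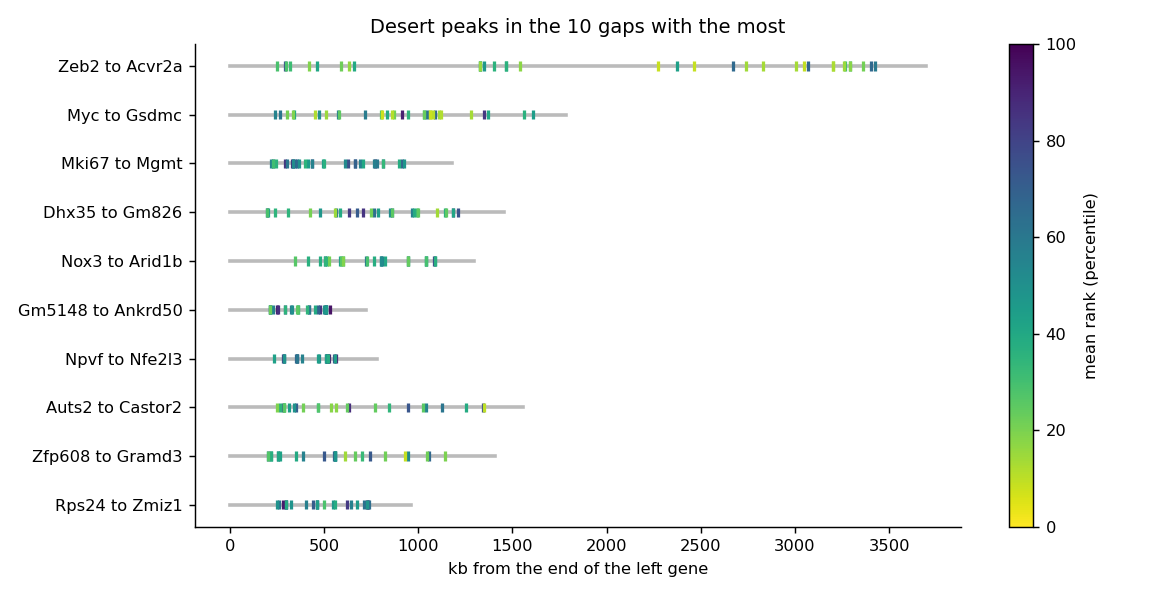
Position of every desert peak in the 10 gaps with the most members, in kb from the end of the left gene, coloured by mean rank. Grey lines span the gap. The blank ends include stretches within 200 kb of a protein-coding start and can also hold desert without a member. The Zeb2 to Acvr2a gap holds 35 and the Gm5148 to Ankrd50 gap packs 27 into the shortest span.

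By nearest protein-coding start, 925 of 1440 genes with desert sequence beside them had a member, or 64.2%. Of the 925, 315 had 1 and 56 had at least 10. Zfp608, a zinc finger gene, had 26, Myc 19, Mki67 and Acvr2a 18 each, Auts2 and Zeb2 17 each, and Nfe2l3, Gsdmc, Nr2f2, Arid1b and Gm826 16 each. Zfp36l1, which encodes a factor of messenger RNA decay, had 15 in 0.0983 Mb of desert, or 153 per Mb. Others with 14 or 15 were Tbl1xr1, Gm5148, Mgmt, Tbx3, Ets1, Cdh5, Olfm4 and Flrt2. The nearest gene is a label of position here and no target was measured.

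Gene lists put these counts beside the amount of desert each group of genes has. Members per Mb of desert were 12.4 beside limb and skeletal patterning factors, 11.8 beside broad developmental transcription factors, 10.2 beside growth factors and morphogens, 10.1 beside extracellular matrix genes and 7.52 beside muscle regulators. Beside neural and synaptic adhesion genes it was 2.57, over 80.5 Mb of desert, against 6.42 for all genes. In each library alone neural adhesion genes had the fewest of the lists, 7.52 per Mb in replicate 1 and 8.00 in replicate 2, against 11.4 and 14.9 for all genes. Within 500 kb of a start, neural adhesion genes had 3.45 members per Mb, limb factors 13.4 and broad developmental factors 16.1, against 9.003 for all genes. Beside 0 of the 23 autosomal housekeeping genes was there desert sequence. The share of genes beside desert that had at least 1 member differed less, at 64.3% for limb factors, 66.7% for growth factors, 61.1% for matrix genes and 62.5% for muscle regulators, close to the 64.2% of all genes. It was 77.3% for broad developmental factors and 75.3% for neural adhesion genes.

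Among limb factors, 18 of 28 with desert had members, 88 in all, led by Tbx3, a T-box factor of limb and mammary patterning, with 14, and Sox9, the master regulator of cartilage, with 13. Tbx3 members were strong for a desert, at median ranks of 45.4 in replicate 1 and 61.7 in replicate 2, whereas those of Sox9 stood at 29.1 and 41.1. Of 44 broad developmental factors with desert, 34 had members, 198 in all, led by Zeb2 with 17 and Nr2f2, an orphan nuclear receptor, with 16. Of the growth factors, 18 of 27 had members, with 8 beside Tgfb2 in 0.0663 Mb of desert and 7 beside Inhba, an activin subunit, including one at a mean rank of 92.3. Extracellular matrix genes had 44 members beside 11 of 18 genes, led by the proteases Adamts9 with 7 and Adamts5 with 6.

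Muscle regulators had little desert of their own, 1.59 Mb, with 12 members beside 5 of 8 genes. Their median ranks, 14.9 in replicate 1 and 23.3 in replicate 2, were below the 28.5 and 41.5 of all desert peaks. Prox1, a homeodomain factor of slow muscle fibres, had 4 of them at 203.8 to 249.2 kb from its start, at median ranks of 35.0 in replicate 1 and 50.6 in replicate 2. Pax3, the paired-box factor of muscle precursors, had 3, at median ranks of 13.05 in replicate 1 and 21.5 in replicate 2. Neural adhesion genes had 207 members beside 55 of 73 genes, led by Flrt2 with 14 and Adgrl2 with 13, at median ranks of 14.5 in replicate 1 and 23.5 in replicate 2 over the list.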

How the data were processed

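DNase-seq of 2 libraries of 1 group was analysed from interval lists the authors deposited on mm10, per the labels. Each peak has a cut density, a signal value set by the authors, each entry of the footprint lists has a deposited score that is always 0.01, and the deposited false discovery rate lists hold q-values of at most 0.05. Not given in the sources used here are the aligner, the peak caller, the thresholds of both peak lists and read depth. Each list was called on 1 library. Replicates came from separate samples per the labels, called biological but with the same donor entry. Biological and technical parts of the spread between libraries therefore cannot be told apart.

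From the files were computed overlaps of at least 1 bp, distances to GENCODE M21 starts, ranks within a list, exact motif matches and counts per Mb of sequence other than N, with Python 3.11.15, numpy 2.4.6, pandas 2.3.3 and matplotlib 3.10.9; functions were tested on simulated data. The motif search used the C57BL/6J reference, so a site gained or lost on the CAST copy was missed. The members, gene lists and motifs were chosen with earlier results of these data known. Named were the 20 nearest genes with the most members, the 12 strongest and 5 farthest members, 10 gaps, 3 peaks on each side of 200 kb and 2 genes per list. With 1 group no test was made. Alternatives moved the distance limit, overlap, list, library and annotation; RefSeq genes and the soft-masked limit were added after seeing the data.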

Additional observations from a re-analysis of the deposited data

How the results depend on the processing

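With a limit of 100 kb there were 6231 peaks. With a limit of 500 kb there were 698, at 3.16 per Mb, a median rank of 22.4 and footprints in both libraries for 65.2%. Counting the starts of all annotated genes left 181. A reciprocal overlap of 50% raised the share with footprints in both to 81.2%, and the shorter lists left 1386 peaks, 2.77 per Mb, with 93.8%. Each library alone, with no partner required, gave 5678 to 7443 peaks, 11.4 to 14.9 per Mb, median ranks of 14.0 to 18.6 and own footprints in 59.5% to 74.4%; fewer or more peaks follow from the construction of these settings, and other causes were not tested. Replicate 2 boundaries (3207 peaks), RefSeq genes (3053, added after seeing the data) and members under 50% soft-masked (2996, also added) stayed within 1.5 times of 3210. Both added settings only removed members, so their counts could only fall and do not show peaks that would newly qualify. The share with CAGCTG ranged over 21.2% to 33.7% and that with CTCF over 2.26% to 6.64% across settings. No paired analysis was possible because there was 1 group. Read depth is unknown, so which weak desert peaks were missed in replicate 1 could not be told.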

Other observations

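The largest stretches of desert without a member lay between Cadm2, a synaptic adhesion gene, and Speer2, with 1.82 Mb of desert, between Tmprss15 and Ncam2 with 1.69 Mb, and between Man1a and Tbc1d32 with 1.62 Mb. Each still held peaks of single libraries, 12 in replicate 1 and 7 in replicate 2 from Cadm2 to Speer2. Of 151 gaps with at least 1 Mb of desert, 145 had a member, at a median of 2.79 per Mb and up to 27.7 between Dhx35 and Gm826. By chromosome, members per Mb of desert ran from 4.44 on chromosome 6 to 9.17 on chromosome 13.

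The ratio of replicate 1 to replicate 2 density had a median of 1.33 over desert peaks and 1.41 over all shared peaks. It was 9.21 at chr12:74803861-74804020 near Kcnh5, where density was 14.3 in replicate 1 and 1.56 in replicate 2 and 88.1% of the bases were soft-masked. The next highest ratio was 3.23. Among the 147 members with a ratio above 2, 21.8% were at least 50% soft-masked, against 5.94% of the others.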
